A study of Mus musculus with 4 samples.

Results

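Potassium channel subunits were followed in mouse pancreatic islet cells, as the 91 genes whose symbol is Kcn followed by letters and a number, of 22911 genes with a symbol on the array. Kcnj11, the pore of the ATP-sensitive channel, is not a member and is counted below among the partner genes. The members fall into 20 subfamilies, from Kcna to Kcnv, and each gene is represented by its brightest probe of 143 probes in all. Islet cells of 60-week-old male C57BL/6 littermates (4 mice) were dispersed to single cells and treated ex vivo for 24 h at 10 μM, and their total RNA was hybridized to 4 Agilent arrays in one color. 2 arrays hold cells given a scrambled peptide, a control sequence (replicates 1 and 2), and 2 hold cells given MOTS-c, a peptide encoded in mitochondrial DNA (replicates 2 and 3). The cells came from collagenase-digested, handpicked islets, so each sample holds several cell types, and no source ties an array to a single mouse. The p-values measure only the spread between these samples, which may be technical in part.

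Potassium channels let potassium leave the cell and thereby hold or restore a negative membrane potential. In the β-cell, closure of ATP-sensitive channels by glucose metabolism depolarizes the membrane and opens calcium channels, and voltage-gated and calcium-activated potassium channels then repolarize it and end each burst of calcium entry. The pore-forming subunits are grouped here as voltage-gated (Kcna, Kcnb, Kcnc, Kcnd, Kcnh, Kcnq), silent modifiers that form channels only together with other voltage-gated subunits (Kcnf, Kcng, Kcns, Kcnv), calcium- or sodium-activated channels and their relative Kcnu1 (Kcnma, Kcnn, Kcnt, Kcnu), inward rectifiers (Kcnj) and K2P background channels that carry leak current (Kcnk). Auxiliary subunits (Kcnab, Kcne, Kcnip, Kcnmb) form no pore and change the gating or trafficking of the channels they bind.

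On each array, 61.6% to 65.0% of gene spots were well above their local background and 0 were saturated. The insulin genes Ins1 and Ins2 and the markers Iapp, Mafa and Nkx6-1 were well above background on all 4 arrays, as were glucagon (Gcg) and somatostatin (Sst), whereas Ucn3, a marker of mature β-cells, was well above background on 0. The labels describe the mice as male, yet Xist was detected on all 4 arrays, whereas 7 probes for genes of the Y chromosome (Uty, Kdm5d, Eif2s3y and Ddx3y) passed the same mark in 0 of 28 measurements. Among all probes, MOTS-c replicate 3 lay apart, with a median absolute log2 difference of 0.19 from scrambled replicate 1 and 0.24 from scrambled replicate 2. The scrambled arrays differed from each other by 0.16. MOTS-c replicate 2 lay about as close to them, at 0.17 and 0.16, and by 0.19 from MOTS-c replicate 3. In bulk samples such as these, fewer cells of a type and less RNA per cell cannot be told apart.

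Islet cells held transcripts of every subfamily, but not of every member. Of the 91 members, 51 (56.0%) were well above background on all 4 arrays, against 64.5% of all genes. 34 members (37.4%) were well above background on 0 arrays, against 29.7% of all genes. Kcnb, Kcnc and Kcns were detected in full, with 2 of 2, 4 of 4 and 3 of 3 genes on all 4 arrays. The Kcna subfamily of Shaker-type channels stood at the other end, with 1 of 8 genes (Kcna7) on all 4 arrays and the other 7 on 0. Among the Kcnj inward rectifiers, 5 of 14 were detected on all 4 arrays, and of the 4 G protein-gated genes Kcnj5, Kcnj6 and Kcnj9 were on 0 arrays and Kcnj3 on 1. K2P channels were detected more often, with 8 of 14 on all 4 arrays.

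**Figure D1:**
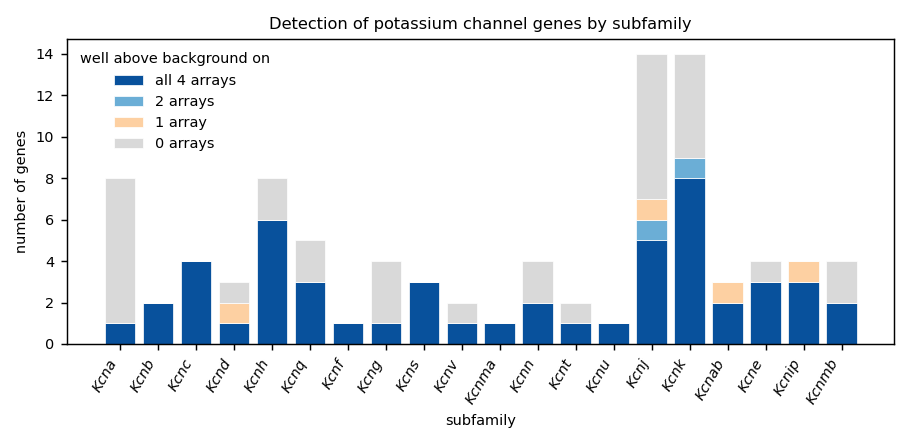
Number of potassium channel genes in each subfamily (y axis, genes) by the number of arrays on which the brightest probe was well above background (colors). Kcna is nearly all undetected, with 7 of 8 genes on 0 arrays, whereas all genes of Kcnb, Kcnc and Kcns were detected on all 4 arrays.

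The undetected members included, among voltage-gated channels, Kcna1, Kcna2, Kcna3, Kcna4, Kcna5, Kcna6, Kcna10, Kcnd2, Kcnh7, Kcnh8 and Kcnq5. Among the silent modifiers they were Kcng1, Kcng3, Kcng4 and Kcnv1, and among the calcium- or sodium-activated channels Kcnn2, Kcnn4 and Kcnt2. Among inward rectifiers and K2P channels they were Kcnj1, Kcnj5, Kcnj6, Kcnj8, Kcnj9, Kcnj15, Kcnj16, Kcnk2, Kcnk7, Kcnk9, Kcnk13 and Kcnk18, and among auxiliary subunits Kcne4, Kcnmb1 and Kcnmb3. Kcnab1, Kcnd3, Kcnip2 and Kcnj3 were well above background on 1 array. A value not well above background is a bound on the signal of that probe and does not show that the gene is silent. These 38 members had too little signal for a comparison, which left 53 members (58.2%), and 17 of the 27 with a known role in islet cells, for the test of MOTS-c against scrambled.

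The comparison asks which channel subunits differed after MOTS-c. With MOTS-c, most potassium channel transcripts that could be compared had lower signals, led by Kcnk10, Kcnmb2, Kcnf1 and the ether-a-go-go family (Kcnh), while Kcne3 and Kcnn3 had higher ones. The log2 fold change (MOTS-c minus scrambled, quantile normalized) was below 0 in 34 of 53 members (64.2%), against 50.4% of the 15469 genes that could be compared, and its median was -0.19 over the members against -0.0018 over the genes. The median was -0.10 without MOTS-c replicate 3 and -0.24 without MOTS-c replicate 2. No member passed limma with Benjamini-Hochberg adjustment over all probes at 0.05, and the share of all genes that did was 0%. The smallest adjusted p in limma was 0.474, and an exact permutation test of 2 against 2 arrays cannot give a two-sided p below 0.333. All differences below are therefore differences that failed the correction.

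At an unadjusted p under 0.05 in limma, 10 of 53 members (18.9%) passed, 2 higher and 8 lower, against 8.61% of all genes. By the methods' t-test, 6 members passed that level and 0 after adjustment. Of the 10, 4 passed by both tests (Kcne3, Kcnh1, Kcnn1 and Kcnq1), and Kcnf1, Kcnh3, Kcnh6, Kcnk10, Kcnmb2 and Kcnn3 missed the level by the t-test. With a change of at least 1.5-fold added, 2 members (3.77%) were higher against 0.996% of genes, and 4 members (7.55%) were lower against 3.01% of genes. The highest MOTS-c signal was below the lowest scrambled signal in 21 members (39.6%), against 22.7% of genes, and the groups were apart in the other direction in 7 members (13.2%), against 19.8% of genes. Kcnk5, among these 7, was well above background only in the MOTS-c arrays and was compared through them alone. Without scrambled replicate 1, 3 of 53 members passed the unadjusted level, and without MOTS-c replicate 2, 14 passed. The counts of members 1.5-fold lower at that level were 0 and 8 under the same omissions.

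**Figure D2:**
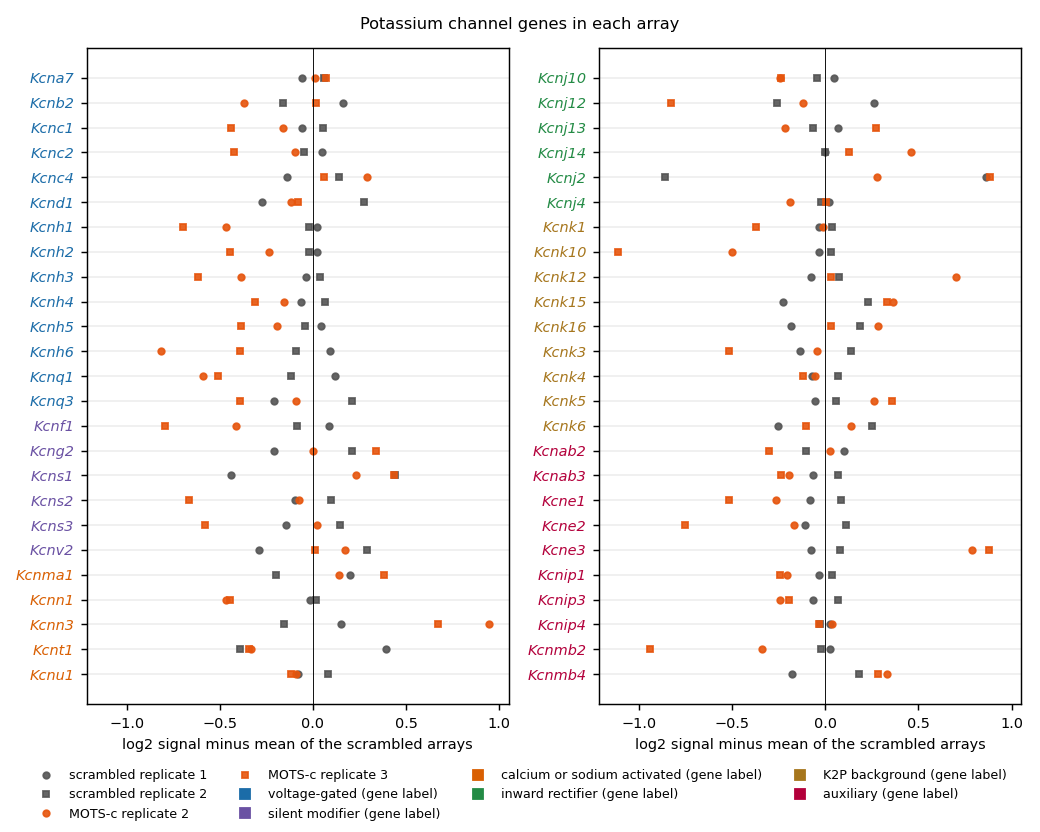
Normalized log2 signal of 50 of the 53 compared genes in each array, minus the mean of its scrambled arrays (x axis, log2 units), with the gene label colored by class. Orange MOTS-c points lie left of both gray scrambled points in 20 of these genes and right of both in 6, and the widest spread within a group is that of Kcnj2.

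The voltage-gated class held the largest share of lower signals of the 6 classes, with 14 of 17 compared members below 0, against 50.4% of all genes, and a median log2 fold change of -0.26. 4 of them passed the unadjusted level (Kcnh1, Kcnh3, Kcnh6 and Kcnq1), all lower, against 8.61% of all genes. Leaving out 1 array at a time gave between 12 and 15 of 17 below 0.

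Within that class, 3 of the 6 compared members of the ether-a-go-go family passed the unadjusted level, Kcnh1, Kcnh3 and Kcnh6, all lower, against 8.61% of all genes. Kcnh1 and Kcnh5 encode Eag channels, Kcnh2 and Kcnh6 Erg channels and Kcnh3 and Kcnh4 Elk channels, and Erg current is known to contribute to repolarization in β-cells. In all 6 compared Kcnh members the groups did not overlap and MOTS-c was lower, which held for 22.7% of all genes, and Kcnh7 and Kcnh8 were not detected. In 5 of the 6, Kcnh6 excepted, MOTS-c replicate 3 lay below MOTS-c replicate 2. All 6 stayed below 0 under each of the 12 alternatives of processing or array omission, with 7 of 8 below 0 when undetected probes were added. Because their groups did not overlap, leaving out 1 array could hardly reverse the sign of the 6. The trend and t-test alternatives share the main fold change. Kcnh8, the added gene below 0, was on 0 arrays. These counts therefore do not measure stability.

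Kcnh1 had normalized log2 signals of 10.94 and 10.90 in the scrambled arrays and 10.46 and 10.23 in the MOTS-c arrays. The scrambled arrays nearly coincided, and both MOTS-c arrays lay clearly lower. MOTS-c differed from scrambled by a log2 fold change of -0.58 ± 0.14 (SE), with an unadjusted p of 0.0105 and an adjusted p of 0.520 in limma. Kcnh1 missed the unadjusted level without scrambled replicate 1, at a log2 fold change of -0.56. Kcnh3 followed the same order, with 10.78 and 10.86 in scrambled against 10.43 and 10.20 in MOTS-c, a log2 fold change of -0.50 ± 0.14 (SE) and an adjusted p of 0.541 in limma. Kcnh3 missed the unadjusted level without scrambled replicate 1 (-0.54), scrambled replicate 2 (-0.46) or MOTS-c replicate 3 (-0.38), and by the methods' t-test.

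Kcnh6 measured 9.46 and 9.28 in the scrambled arrays against 8.55 and 8.98 in the MOTS-c arrays, where replicate 2 was the lower. Its log2 fold change was -0.60 ± 0.19 (SE), with an adjusted p of 0.566 in limma, and it was -0.39 without MOTS-c replicate 2, past the unadjusted level no longer. The same loss followed without scrambled replicate 1 (-0.51) or scrambled replicate 2 (-0.69), as the mean over its probes (-0.39), without a filter on dim probes and by the methods' t-test. Its Erg relative Kcnh2 measured 9.62 and 9.57 against 9.36 and 9.15, a log2 fold change of -0.34 ± 0.14 (SE) with an adjusted p of 0.657 in limma. Kcnh5 and Kcnh4 had the smallest differences of the family, with log2 fold changes of -0.29 and -0.23.

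**Figure D3:**
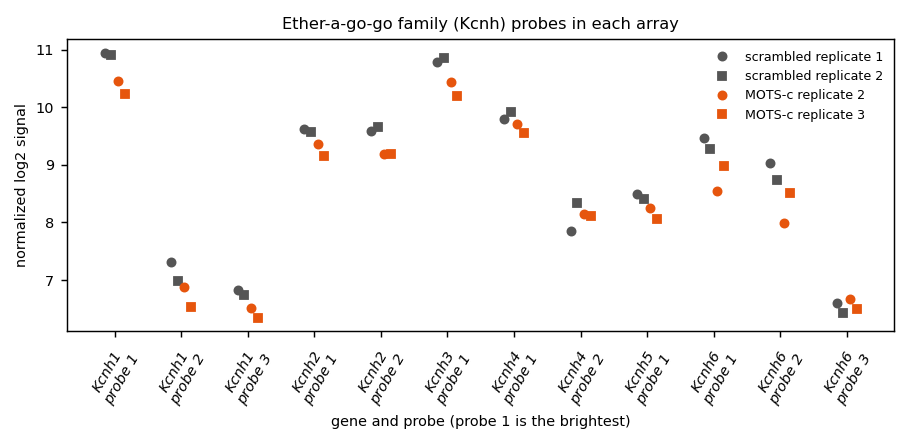
Normalized log2 signal (y axis) of every compared Kcnh probe in each of the 4 arrays, probe 1 of a gene being its brightest. MOTS-c points lie below scrambled points for probe 1 of all 6 genes, whereas probe 2 of Kcnh4 and probe 3 of Kcnh6 show no such gap.

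Kcnh1 and Kcnh6 are the lower Kcnh genes at the unadjusted level with exactly 1 promoter entry in RefSeq. Of the 2 members higher at that level, Kcnn3, described below, was picked to set beside them, and the window of Kcne3 is not shown. The 300 bases around the annotated start sites of Kcnh1, Kcnh6 and Kcnn3 are shown, 5′ to 3′ on the strand of the gene. Capitals mark each GC box, GGGCGG or its reverse complement CCGCCC. The windows are chr1:192190527-192190826 (plus strand) for Kcnh1, chr11:106007898-106008197 (plus strand) for Kcnh6 and chr3:89519914-89520213 (plus strand) for Kcnn3, in GRCm38.p6.
Kcnh1: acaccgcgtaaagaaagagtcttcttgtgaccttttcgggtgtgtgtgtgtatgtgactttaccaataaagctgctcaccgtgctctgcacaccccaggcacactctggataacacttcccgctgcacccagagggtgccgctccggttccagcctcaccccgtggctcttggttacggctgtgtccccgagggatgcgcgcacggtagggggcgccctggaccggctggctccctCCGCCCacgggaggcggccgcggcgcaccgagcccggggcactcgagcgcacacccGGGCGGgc
Kcnh6: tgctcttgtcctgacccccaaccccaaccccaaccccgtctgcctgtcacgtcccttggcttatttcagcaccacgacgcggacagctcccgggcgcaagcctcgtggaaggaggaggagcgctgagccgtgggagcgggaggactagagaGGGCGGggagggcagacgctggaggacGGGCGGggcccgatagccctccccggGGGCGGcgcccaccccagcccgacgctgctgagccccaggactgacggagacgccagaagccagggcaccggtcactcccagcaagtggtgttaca
Kcnn3: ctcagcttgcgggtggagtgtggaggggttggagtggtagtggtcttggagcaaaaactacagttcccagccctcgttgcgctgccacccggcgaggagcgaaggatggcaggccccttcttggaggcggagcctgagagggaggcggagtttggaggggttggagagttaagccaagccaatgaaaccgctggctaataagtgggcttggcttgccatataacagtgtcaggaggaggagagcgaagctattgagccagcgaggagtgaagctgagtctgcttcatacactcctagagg
Kcnh1 held 2 GC boxes and Kcnh6 held 3, and the windows of Kcnh2, Kcnh4 and Kcnh5 held 3, 1 and 1. The Kcnn3 window held 0, and as the window of 1 picked gene it does not stand for the higher members. Over all 32851 windows of the same length, 35.7% held a GC box on either strand, and 44 of 92 windows of the members (47.8%) did. The TATA box TATAAA was in 5 of 92 member windows (5.43%) against 13.6% of all windows, and the E box CACGTG in 7 (7.61%) against 7.15%. Windows were found for 67 of the 91 members. These matches describe letters and show no binding.

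Kcnq1, the slow delayed rectifier subunit, measured 8.07 and 7.83 in scrambled against 7.36 and 7.44 in MOTS-c. The MOTS-c arrays agreed more closely with each other than the scrambled arrays did, and the groups did not overlap. The log2 fold change was -0.55 ± 0.14 (SE), with an unadjusted p of 0.0139 and an adjusted p of 0.534 in limma. It missed the unadjusted level without scrambled replicate 1 (-0.43), without MOTS-c replicate 2 (-0.51) and as the mean over its probes (-0.31). Its relative Kcnq3 had a log2 fold change of -0.24, with overlapping groups.

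Kcnb2, a delayed rectifier, measured 7.24 and 6.91 against 6.71 and 7.09, so its groups overlapped at a log2 fold change of -0.17. Without MOTS-c replicate 2 it was 0.019. Of the fast Kcnc channels, Kcnc1, Kcnc2 and Kcnc4 had log2 fold changes of -0.30, -0.26 and 0.18. A second probe of Kcnc4, well above background on all 4 arrays, was higher without overlap, at 0.58 with an unadjusted p of 0.0226 and an adjusted p of 0.554 in limma. The 2 further probes of Kcnc1 were at -0.38 and -0.22. Kcnc2 measured 5.70 and 5.61 against 5.56 and 5.23. Kcnd1, an A-type channel, and Kcna7 had overlapping groups, at -0.10 and 0.04.

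Among the silent modifiers, Kcnf1 was lower with MOTS-c, and no other member passed the unadjusted level. Kcnf1 measured 9.28 and 9.11 in scrambled against 8.78 and 8.40 in MOTS-c. Both MOTS-c arrays were lower, replicate 3 more so, and the log2 fold change was -0.60 ± 0.18 (SE) with an unadjusted p of 0.0231 and an adjusted p of 0.557 in limma. It missed the unadjusted level without scrambled replicate 1 (-0.52), scrambled replicate 2 (-0.69) or MOTS-c replicate 3 (-0.42), and by the methods' t-test. The other 5 compared members ranged from -0.37 for Kcns2 to 0.33 for Kcns1, and all 5 had overlapping groups. The median of the class was -0.09.

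The calcium-activated SK channels went in opposite directions. Kcnn3, a small-conductance channel known in β-cells, measured 5.51 and 5.21 in scrambled and 6.31 and 6.03 in MOTS-c. Both MOTS-c arrays were higher, and the gap exceeded the spread within either group. This was a log2 fold change of 0.81 ± 0.18 (SE), 1.75-fold, with an unadjusted p of 0.00761 and an adjusted p of 0.506 in limma, and it passed the unadjusted level under each omission of 1 array but missed it by the methods' t-test. With normexp background correction the log2 fold change was 0.40. A second probe of Kcnn3 was well above background in both MOTS-c arrays and in neither scrambled array, at least 1.53-fold higher with MOTS-c. It was compared only because the MOTS-c arrays passed the filter, so it adds no independent support. Where a probe was below background in 1 group, as here, the bound sets the bright group against the lowest signal well above background on each dim array, or the signal of the probe if that was higher.

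Kcnn1, another SK channel, measured 6.21 and 6.24 in scrambled and 5.76 and 5.78 in MOTS-c. Arrays of a group nearly coincided, and the MOTS-c arrays were lower, with a log2 fold change of -0.45 ± 0.12 (SE) and an adjusted p of 0.534 in limma. It missed the unadjusted level with normexp correction (-0.19), as the mean over its probes (-0.48), in limma with a trend and without scrambled replicate 1 (-0.47) or scrambled replicate 2 (-0.44). Kcnma1, the pore of the large-conductance BK channel, measured 9.49 and 9.09 against 9.43 and 9.67, overlapping groups with a log2 fold change of 0.26. The sodium-activated Kcnt1 measured 6.33 and 5.55 against 5.61 and 5.60, and its log2 fold change of -0.34 rested on scrambled replicate 1, without which it was 0.054. Kcnu1, a channel known from sperm, had -0.10.

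**Figure D4:**
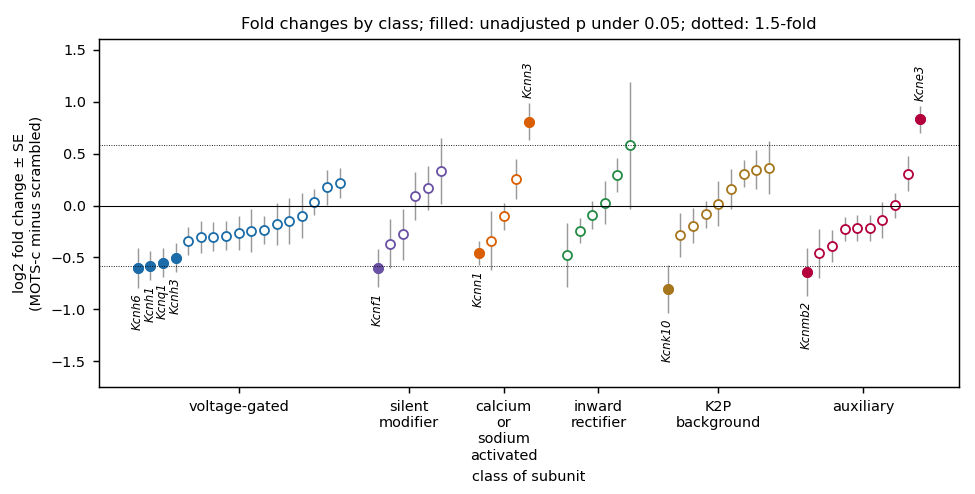
Log2 fold change, MOTS-c minus scrambled (y axis), of the 53 compared genes by class, with bars of 1 SE from limma, filled where the unadjusted p was under 0.05. The 8 filled points below 0 and the 2 above (Kcnn3 and Kcne3) are labeled, and 14 of 17 voltage-gated genes lie below 0.

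The inward rectifiers showed no member past the unadjusted level, and their median log2 fold change was -0.03. Kcnj10, a channel best known in glia, measured 11.42 and 11.33 in scrambled and 11.13 and 11.14 in MOTS-c, without overlap, and its log2 fold change of -0.24 ± 0.12 (SE) had an adjusted p of 0.713 in limma. Kcnj14 had the only other groups without overlap in the class, at 6.05 and 6.05 against 6.51 and 6.17, a log2 fold change of 0.29. Of the strong rectifiers, Kcnj2 was well above background on 1 array of each group, and Kcnj12 had a log2 fold change of -0.48 with an SE of 0.31. The strong rectifier Kcnj4 and Kcnj13 had log2 fold changes of -0.09 and 0.03.

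Among the K2P channels, Kcnk10, a mechanosensitive and lipid-sensitive background channel of the TREK group, had the largest negative log2 fold change of the 53 compared members. It measured 7.06 and 7.12 in scrambled and 6.59 and 5.98 in MOTS-c. The scrambled arrays nearly coincided, and the MOTS-c arrays differed from each other by more than replicate 2 differed from them. The log2 fold change was -0.80 ± 0.23 (SE), 1.75-fold lower, with an unadjusted p of 0.0206 and an adjusted p of 0.546 in limma. It was -0.50 without MOTS-c replicate 3 and -1.10 without MOTS-c replicate 2, and it missed the unadjusted level without scrambled replicate 1 (-0.84) or scrambled replicate 2 (-0.77), without a filter on dim probes and by the methods' t-test. A second probe of Kcnk10 was well above background in the scrambled arrays and in neither MOTS-c array, at least 2.03-fold lower with MOTS-c. It was compared only because the scrambled arrays passed the filter, so it adds no independent support.

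The other 8 compared K2P channels did not pass the unadjusted level. Kcnk16, the TALK channel known for its abundance in β-cells, measured 6.70 and 7.07 in scrambled and 7.17 and 6.92 in MOTS-c, so its groups overlapped, and the log2 fold change of 0.16 became -0.028 without scrambled replicate 1. Kcnk3, an acid-sensitive TASK channel, measured 9.12 and 9.39 against 9.21 and 8.73, with only MOTS-c replicate 3 below both scrambled arrays. Kcnk1 measured 10.50 and 10.57 against 10.52 and 10.16, with the same pattern. Kcnk5 was well above background in the MOTS-c arrays alone and entered the comparison only through them. It measured 3.96 and 4.07 in scrambled and 4.27 and 4.37 in MOTS-c, near the edge of detection. Its bound was 1.19-fold higher with MOTS-c, with an adjusted p of 0.670 in limma, and the filter favors such a difference. Kcnk12 and Kcnk15 had log2 fold changes of 0.37 and 0.35, and Kcnk4 and Kcnk6 of -0.09 and 0.02.

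Among the auxiliary subunits, Kcne3 had the largest positive log2 fold change of the compared members and Kcnmb2 was lower. Kcne3, a single-span subunit that binds Kcnq1 and keeps it open, measured 5.46 and 5.62 in scrambled and 6.33 and 6.42 in MOTS-c. Arrays of a group lay close together, and the gap between the groups was several times the spread within them. The log2 fold change was 0.83 ± 0.13 (SE), 1.78-fold, with an unadjusted p of 0.0019 and an adjusted p of 0.474 in limma. It passed the unadjusted level under each omission of 1 array, between 0.75 and 0.91, and fell to 0.36 with normexp background correction. The relatives Kcne1 and Kcne2 were on the other side of 0. Kcne1, which slows Kcnq1, measured 7.28 and 7.44 against 7.10 and 6.84, a log2 fold change of -0.39 ± 0.15 (SE) with an adjusted p of 0.649 in limma. Kcne2 measured 6.27 and 6.49 against 6.21 and 5.63, a log2 fold change of -0.46.

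Kcnmb2, the BK β subunit that inactivates the channel, measured 9.97 and 9.92 in scrambled and 9.61 and 9.004 in MOTS-c. The MOTS-c arrays were both lower and differed widely from each other. Kcnmb2 had a log2 fold change of -0.64 ± 0.23 (SE), 1.56-fold lower, with an unadjusted p of 0.0426 and an adjusted p of 0.614 in limma. It missed the unadjusted level without MOTS-c replicate 3, at -0.34, and without scrambled replicate 1 (-0.62) or scrambled replicate 2 (-0.66), without a filter on dim probes and by the methods' t-test. Kcnmb4, the other compared BK β subunit, measured 8.55 and 8.91 against 9.06 and 9.01, a log2 fold change of 0.31. The Kv4-binding proteins Kcnip1 and Kcnip3 were both without overlap and slightly lower, with log2 fold changes of -0.23 and -0.22. Kcnip1 measured 8.09 and 8.16 against 7.92 and 7.88, and Kcnip3, also a calcium-binding transcription repressor, 12.07 and 12.20 against 11.89 and 11.94. Kcnip4 was at 0.00, and the Kcnab subunits Kcnab2 and Kcnab3 at -0.14 and -0.22.

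Further probes of the same genes gave a check on single probes, though probes of 1 gene on 1 array share its RNA and are not replicates. 19 members had 28 further compared probes, of which 22 had the sign of the brightest probe. Of the 10 members past the unadjusted level, 7 had 10 further probes, 8 of them with the same sign. Among these 8, the probes of Kcnk10 and Kcnn3 passed the filter through the brighter group alone, so their sign was favored in advance. For Kcnh1 the further probes gave log2 fold changes of -0.45 and -0.36, for Kcnmb2 -0.53 and for Kcnn1 -0.51. Kcnh6 had 1 further probe at -0.62 and 1 at 0.07, and Kcnq1 1 at -0.59 and 1 at 0.20. In each gene the probe that went the other way was dimmer than the brightest. That of Kcnh6 was still well above background on all 4 arrays, and that of Kcnq1 on 3. For Kcnma1 the 4 further probes lay between -0.06 and 0.03, whereas its brightest was at 0.26.

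**Figure D5:**
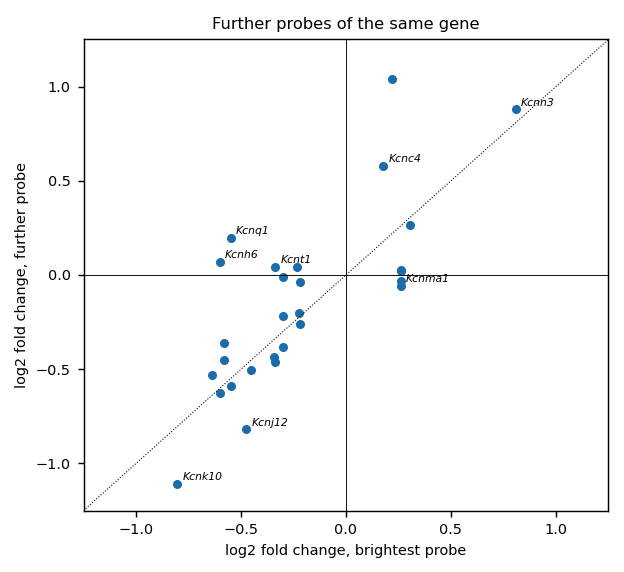
Log2 fold change of each of the 28 further probes (y axis) against that of the brightest probe of the same gene (x axis), both MOTS-c minus scrambled, with the dotted line marking equal values. 22 of 28 points lie where both probes have the same sign, and Kcnh6 and Kcnq1, among the exceptions, each have a further probe above 0 on the y axis.

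Genes that assemble with or regulate these channels were counted from a list of 12, of which 8 were well above background on all 4 arrays and compared. 2 of them passed the unadjusted level, both lower, against 8.61% of all genes, and the median log2 fold change was -0.30. They were Kcnj11, the pore of the ATP-sensitive channel, which was also past 1.5-fold, and Lrrc55, a BK auxiliary protein, at -0.56 with an adjusted p of 0.539 in limma. Lrrc55 measured 7.07 and 6.79 in scrambled against 6.39 and 6.35 in MOTS-c, without overlap. Abcc8, the sulfonylurea receptor that pairs with Kcnj11, measured 16.17 and 16.04 against 15.78 and 15.88, a log2 fold change of -0.27. Dpp6, a Kv4 partner, had -0.36, and Amigo1, a partner of Kcnb channels, -0.33, both without overlap and not past the unadjusted level. Lrrc38, Kcnrg and Nedd4l had 0.21, 0.23 and 0.05, and Abcc9, Dpp10, Lrrc26 and Lrrc52 were on 0 arrays.

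Markers of some other cell types differed between the groups too. Among α-cell markers, Irx2 was higher with MOTS-c by a log2 fold change of 0.68 and passed the unadjusted level, with an adjusted p of 0.519 in limma, and Gcg had a log2 fold change of 0.11. The log2 of the summed signal of 5 acinar markers was 11.81 to 11.93 against 10.98 to 11.28. That sum was nearly Cela1 alone, which measured 11.77 and 11.90 against 11.23 and 10.92. Of the other 4, Cel overlapped at a log2 fold change of -0.14, Cpa1 was detected on 1 array and Pnlip and Prss2 on 0. The sum of 6 mesenchymal markers was 7.84 to 7.99 against 7.36 to 7.58, with Pdgfra lower, Col1a2 overlapping at a log2 fold change of -0.30 and Col1a1, Col3a1, Pdgfrb and Dcn on 0 arrays. The sum of 7 β-cell markers, set mostly by Ins1 and Ins2, was 19.64 to 19.70 against 19.65. Among them Slc2a2 was lower, at 5.23 and 5.26 against 3.81 and 4.02, and well above background on 3 arrays. Iapp, Mafa and Nkx6-1 were higher without overlap, with log2 fold changes of 0.07, 0.16 and 0.12, not past the unadjusted level. Ins1 and Ins2 had -0.04 and -0.05, and Ucn3 was on 0 arrays. Both insulin genes are among the brightest probes, where quantile normalization gives the arrays nearly equal values. Ins2, for example, measured 18.54 on scrambled replicate 1 and on both MOTS-c arrays. The small differences of the insulin genes and the flat β-cell sum were thus largely set by the processing and do not measure β-cell content. The 3 duct markers were on 0 arrays. The part of these cell types in the differences of the channel genes was not tested.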

How the data were processed

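RNA of 4 islet cell samples (2 scrambled, 2 MOTS-c) was labeled with Cy3, hybridized to 1 slide and scanned. The authors deposited the processed intensity of each spot from Feature Extraction (11.0.1.1), background corrected within the array and not normalized between arrays, and a table of the same intensities rounded. The study removed probes by a flag named A, whose definition is not given in the sources used here. Here 3671 control spots per array and 96 to 131 outlier spots were left out. The deposited intensities were transformed to log2, spots of a probe were averaged, and the 35087 of 56605 probes that exceeded background clearly on 2 or more of the 4 arrays were quantile normalized. limma (3.58.1, R 4.3.3) compared the groups with 2 residual and 2.64 prior degrees of freedom and Benjamini-Hochberg adjustment over all probes. The steps were tested on simulated data. Accessions gave 32994 probes a symbol from the gene table of GRCm38.p6, and 23611 stayed unnamed, so channel probes known by other accessions are not included. The array design uses another build, so no probe coordinates are given. Promoter windows are those of RefSeq. The number of arrays limits the precision.

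Full statistics are given for members at an unadjusted p under 0.05, values in each array for these, for members 1.5-fold apart without overlap and for compared channels with a known islet role, and values for others by class. Some genes under this rule are not named here. Members and lists were chosen with earlier results of these data known. Alternatives were a 75th percentile shift, normexp correction with an offset of 50, the rounded table, no filter, a strict filter (all 4 arrays), the mean over probes of a gene, limma with a trend, the methods' t-test and omission of each array. Kcnh and voltage-gated counts across alternatives were added after seeing the data.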

Additional observations from a re-analysis of the deposited data

How the results depend on the processing

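The 34 members followed through 12 alternatives were those past the unadjusted level, with a known islet role or with groups that did not overlap. Of these, 31 kept their direction throughout, and the 3 that did not had overlapping groups. In 28 of the 34 the groups did not overlap, so leaving out 1 array could hardly reverse the sign. The trend and t-test alternatives share the main fold change, so the count does not measure stability. When 1 array was left out, the log2 fold change ranged from -0.37 to 0.019 for Kcnb2, from -0.028 to 0.34 for Kcnk16 and from -0.73 to 0.054 for Kcnt1. Of 53 members, the count 1.5-fold higher at the unadjusted level was 0 with normexp correction and 1 by the methods' t-test, against 2. The count lower was 2 with normexp correction, 2 of 91 without a filter and 0 by the methods' t-test, against 4, and 0 to 8 with 1 array left out. The count at the unadjusted level was 6 by the methods' t-test, against 10, and 3 to 14 with 1 array left out. Without a filter, 22 of 30 voltage-gated members were below 0, against 14 of 17, and the members' median was -0.09. With normexp correction the median was -0.10, and without MOTS-c replicate 3 it was -0.10, against -0.19. The causes were not tested. No paired analysis was possible because the groups share only 1 replicate number. With 1 array left out, the lone array of its group was assumed to vary like the other group. Signal over background limits the comparison to the 53 brighter members, and 2 arrays per group limit its precision.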
